A study of Homo sapiens with 4 samples.

Results

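The circles described here are the most abundant circular RNAs of 4 nanopore libraries, namely every back-splice position with 200 or more counts summed over the libraries. They number 860 of the 211599 positions in the table, of which 190152 had at least 1 count. The summed counts of the same 4 libraries chose them, so the members were chosen by measured values, and their abundance is a description with no test. At the edge of the rule, circles of CCDC18 and UBE3C had 200 counts each, and circles of SAR1A, PTPN2 and LYPLAL1 just outside it had 199 each.

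All 4 libraries came from MDA-MB-468, an established triple-negative human breast cancer line, in a radioresistant derivative that had received a total of 50 Gy in fractions. The 2 control libraries carried a control hairpin (shCtrl) and the 2 knockdown libraries a stable hairpin against HNRNPL (shHNRNPL), and the design text calls the 2 of each group biological replicates. The labels give the controls the genotype WT and name 1 hairpin, shHNRNPL-1, for the knockdowns. Both groups share the line and its radiation, and no unirradiated cells enter any comparison. The question the design puts is which circular RNAs depend on HNRNPL.

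A circular RNA forms when the end of an exon is spliced back onto the start of the same or an earlier exon, which leaves a closed ring with no free ends. Such rings resist the enzymes that degrade RNA from its ends, and repeats or RNA-binding proteins in the flanking introns can bring the splice sites together. HNRNPL is an RNA-binding protein that binds CA-rich stretches and regulates splicing. In the protocol the Induro reverse transcriptase copies a ring several times around and phi29 polymerase amplifies the copies, so a count is a read and not an independent molecule.

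Among the 860 circles, 12 (1.40%, against 1.68% of the 20716 circles with 10 to 199 counts) had their 5′ edge inside the RefSeq promoter window of the host gene, 250 bases before to 50 bases after the annotated gene start. The sequences of 8 of them are shown because the letters before the edge separate circles with a splice acceptor dinucleotide, AG, from circles without one. RefSeq sequences of the GRCh38.p14 table are given 5′ to 3′ on the strand of the gene, with the 30 bases before the edge in lower case and the first 12 bases of the circle in capitals. The regions are chr5:180280597-180280638 (minus) for MAPK9, chr2:190659128-190659169 (plus) for NAB1, chr1:32825283-32825324 (plus) for S100PBP, chr21:29305173-29305214 (plus) for BACH1, chr1:25906406-25906447 (minus) for STMN1, chr14:102087033-102087074 (minus) for HSP90AA1, chr6:44247071-44247112 (plus) for HSP90AB1 and chr6:73521021-73521062 (minus) for EEF1A1.
MAPK9: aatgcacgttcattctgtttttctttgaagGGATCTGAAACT
NAB1: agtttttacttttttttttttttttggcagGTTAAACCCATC
S100PBP: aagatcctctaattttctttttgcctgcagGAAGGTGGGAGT
BACH1: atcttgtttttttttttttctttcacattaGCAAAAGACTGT
STMN1: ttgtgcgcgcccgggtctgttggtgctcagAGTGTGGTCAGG
HSP90AA1: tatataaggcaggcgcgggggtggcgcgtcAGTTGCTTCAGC
HSP90AB1: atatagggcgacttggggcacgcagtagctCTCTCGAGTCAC
EEF1A1: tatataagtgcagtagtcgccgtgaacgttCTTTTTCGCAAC

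The letters AG stood just before the edge in 7 of the 12, those of MAPK9, RC3H1, NAB1, S100PBP, STMN1, ARHGEF6 and BIVM-ERCC5. AG stood there in 58.3% of the 12 and in 61.8% of the less abundant circles with an edge in the window, while it is found just before 4.78% of 35116 RefSeq gene starts. In the BACH1 circle the AG lay 1 base later, across the edge. The circles of HSP90AA1, HSP90AB1 and EEF1A1 (2 circles) had no AG there. For 3 of these 4 the letters TATA (its own reverse complement, searched after the sequences had been seen) lay in the 30 bases before the edge, as they do before 5.56% of all RefSeq gene starts.

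MAPK9 encodes a JNK kinase, and its circle was the most abundant of the 12. It had 1097 and 1214 control counts against 546 and 734 knockdown counts. NAB1, a corepressor of EGR transcription factors, gave 127 and 166 control counts against 109 and 122 knockdown counts. Per 100000 the MAPK9 circle was lower in both knockdowns (225 ± 9.96 and 190.5 ± 3.66, SD, n = 2) and the NAB1 circle higher (28.4 ± 2.08 and 34.9 ± 5.17, SD, n = 2).

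The circles of HSP90AA1 and HSP90AB1, which encode cytosolic HSP90 chaperones, had 273 and 249 counts in the first control library, 0 in the second, and between 20 and 28 in each knockdown. The longer EEF1A1 circle, from the gene of a translation elongation factor, had 222, 0, 19 and 24 counts in the same order of libraries. STMN1, which encodes a microtubule-destabilising protein, had an AG before its edge but a like distribution, with 282 and 1 control counts against 16 and 2 knockdown counts. A count of 0 in control replicate 2 allows up to 0.539 per 100000. The circles of these 4 genes were thus high in 1 control library and low or at 0 in the other 3, and the groups overlap. The splice motif given was TC-GA for HSP90AA1, AC-AT for HSP90AB1, AG-GC for STMN1 and AG-GT for EEF1A1, each with an offset. None was AG-GT without an asterisk or offset, the motif of 83.6% of the 860.

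**Figure D1:**
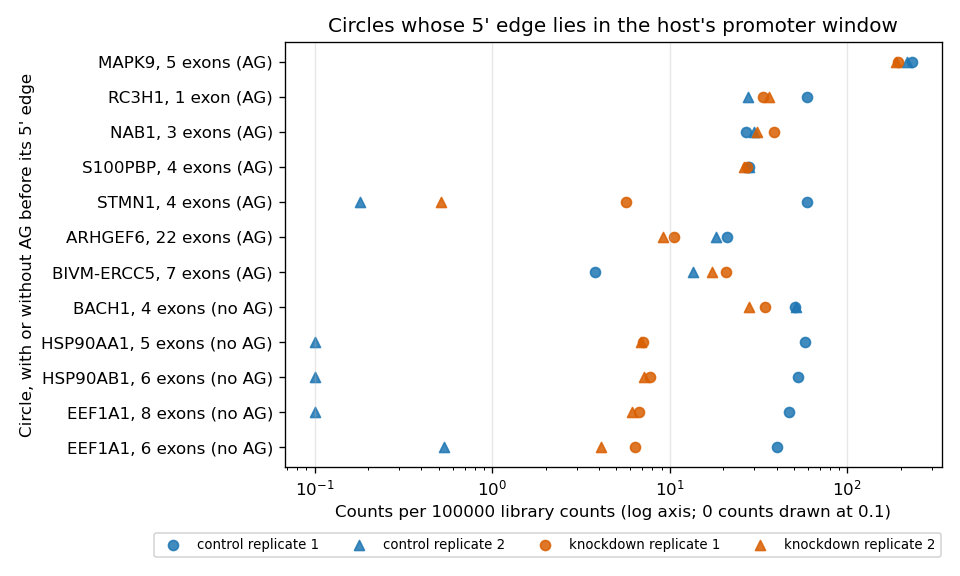
Counts per 100000 library counts (log axis, values of 0 drawn at 0.1) of the 12 circles whose 5′ edge lies in the promoter window of the host, with each library as a point. The circles of HSP90AA1, HSP90AB1, EEF1A1 and STMN1 lie far to the right in control replicate 1 and at or near 0 in control replicate 2, while the MAPK9, NAB1 and S100PBP points lie close together.

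The libraries held 472428 and 556578 counts for control replicates 1 and 2, and 282737 and 390547 for knockdown replicates 1 and 2. Control replicate 1 stood apart, so results are given with and without it where it matters. No row named HNRNPL, so the knockdown rests on the labels. Among markers of the line, circles of EGFR had 200 counts in all, those of EPCAM 40 and CDH1 25, while the 7 keratins had 0 to 3. PGR had 0 counts, ERBB2 6, GATA3 12 and ESR1 22, and the 7 blood, endothelial and stromal markers had 0 apart from ACTA2 with 3. Circular counts need exons that form circles and are a weak check of cell type.

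The 860 circles held 26.7% of the counts of control replicate 1, 36.2% of control replicate 2, 39.1% of knockdown replicate 1 and 38.5% of knockdown replicate 2. The mean control share was 31.5% ± 6.77 and the mean knockdown share 38.8% ± 0.390 (SD, n = 2 each). Both knockdown libraries lay above both controls, by 7.37 percentage points on average, 2.58 without control replicate 1 and 12.2 without control replicate 2. Since these counts also chose the circles, no test was made. The 10 circles with the most counts held 4.16% and 5.41% of the control counts and 7.05% and 6.41% of the knockdown counts.

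In controls the leading circle was a 7-exon ring of ZMYM4, a zinc finger gene (chromosome 1, 35381259 to 35389082, plus strand, 1255 nt). It had 3093 and 5666 control counts against 1756 and 2682 knockdown counts, or 836 ± 257 and 654 ± 46.4 per 100000 (SD, n = 2). The groups overlapped, because control replicate 1 lay between the knockdowns. The single-exon circle of HIPK3, a homeodomain-interacting kinase gene known for this ring, followed (chromosome 11, 33286413 to 33287511, plus strand, 1099 nt). It had 3605 and 4630 control counts against 1850 and 2156 knockdown counts, with both knockdowns below both controls per 100000 (797 ± 48.6 and 603 ± 72.3, SD, n = 2). It held 93.9% of all HIPK3 circle counts.

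The third control circle joined 2 exons of ARHGAP12, which encodes a GTPase-activating protein (chromosome 10, 31908172 to 31910563, minus strand, 794 nt). It had 3735 and 3183 control counts against 774 and 991 knockdown counts, or 681 ± 155 and 264 ± 14.1 per 100000 (SD, n = 2). It had the highest count of control replicate 1 but ranked 20 by its knockdown mean. Its log2 fold change was -1.47 ± 0.40 (SE; edgeR adjusted p = 0.196).

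The other 7 of the control top 10 came from ZBTB44 and QSER1, from a position shared by DAB1 and OMA1, and from TULP4, DOCK1, PPP4R1 and BACH1. The OMA1 position is that of a mitochondrial inner membrane protease gene, the DOCK1 circle holds 26 exons of a Rac exchange factor gene, and BACH1 encodes a heme-sensing repressor. PPP4R1, a regulatory subunit of protein phosphatase 4, gave 1467 and 2431 control counts against 590 and 760 knockdown counts. OMA1 with DAB1, TULP4, DOCK1, PPP4R1 and BACH1 were each lower in both knockdowns than in both controls per 100000, with log2 fold changes from -0.92 (PPP4R1) to -0.44 (BACH1) and edgeR adjusted p of 0.266 to 0.50.

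In knockdowns the first and second places belonged to ARHGAP5, which encodes p190-B, another GTPase-activating protein. Its single-exon circle (chromosome 14, 32090502 to 32094386, plus strand, 3885 nt) had 335 and 2163 control counts against 5090 and 5779 knockdown counts. No splice motif was given for this circle, alone among the 860. The values were 229.8 ± 225 and 1640.0 ± 227 per 100000 (SD, n = 2). The 2-exon circle from the same start (4033 nt) had 216 and 1389 control counts against 3115 and 3555 knockdown counts. Both knockdowns stood above both controls for each circle, yet the 2 controls differed 5.48-fold for the first. Its log2 fold change was 2.93 ± 0.67 (SE), adjusted p = 0.146 in edgeR, and 2.24 without control replicate 1 or 4.27 without control replicate 2.

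SENP6, which encodes a protease that removes SUMO from proteins, supplied the sixth and eighth circles of the knockdowns. A 12-exon circle that also covers the small RNA pseudogene RNU6-1016P (chromosome 6, 75634707 to 75678927, plus strand, 1722 nt) had 84 and 525 control counts against 1748 and 2581 knockdown counts. A single-exon circle of 428 nt (75702645 to 75703072) had 15 and 200 control counts against 1474 and 2527 knockdown counts. The single-exon circle ranked 429 in controls and 8 in knockdowns, and per 100000 it was 19.6 ± 23.2 and 584 ± 88.9 (SD, n = 2). The fitted log2 fold change was 5.02 ± 0.97 (SE), adjusted p = 0.111 in edgeR, with 4.19 without control replicate 1 and 7.25 without control replicate 2.

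The ninth knockdown circle was of intron type, from RAP2C-AS1, a non-coding RNA gene beside RAP2C (chromosome X, 132281095 to 132283032, plus strand, 1938 nt). It had 535 and 1499 control counts against 1457 and 2160 knockdown counts, or 1.51 ± 0.39 (SE) as log2 fold change (edgeR adjusted p = 0.176). The tenth, 3 exons of the zinc finger gene ZNF644, had 67 and 386 control counts against 1171 and 1273 knockdown counts. For the ARHGAP5, SENP6, RAP2C-AS1 and ZNF644 circles alike, control replicate 2 lay between control replicate 1 and the knockdowns.

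ZMYM4, HIPK3, ZBTB44 and QSER1 supplied the 4 circles found in the top 10 of both groups. ZBTB44, a BTB zinc finger gene, gave a single-exon circle of 1074 nt whose control mean was 516 ± 124 per 100000 and whose knockdown mean was 751 ± 68.3 (SD, n = 2). The 3-exon circle of QSER1, whose protein limits DNA methylation, had 2586 and 2573 control counts against 2371 and 2235 knockdown counts, or 505 ± 60.2 and 705 ± 188 per 100000 (SD, n = 2). Both were higher in knockdowns without overlap, with adjusted p of 0.430 and 0.619 in edgeR.

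**Figure D2:**
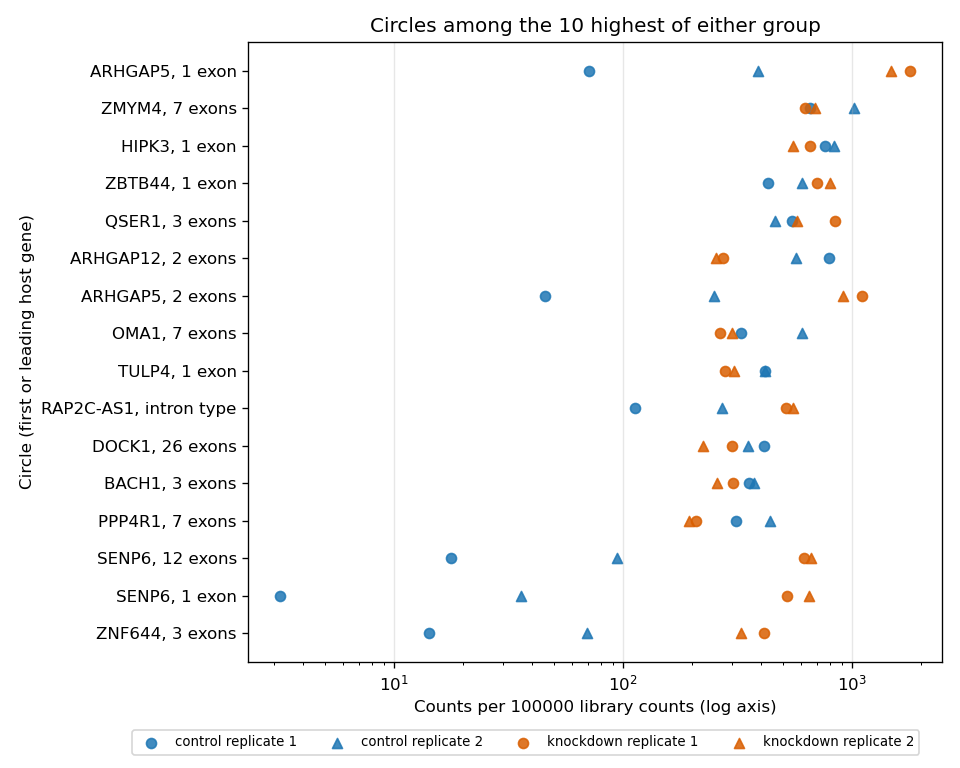
Counts per 100000 library counts (log axis) of the 16 circles in the 10 highest of either group, ordered by total counts, with each library as a point. The ARHGAP5, SENP6 and ZNF644 circles spread widely with control replicate 1 lowest, while the points of HIPK3, TULP4 and BACH1 lie within a narrow range.

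The knockdown libraries ranked the 860 circles almost alike and the controls did not. Pearson's r of log2 counts per 100000 across the 860 circles was 0.963 between the knockdowns and 0.677 between the controls. Control replicate 2 gave 0.530 and 0.525 with the knockdowns and control replicate 1 gave 0.269 and 0.230. These are descriptions across circles that share a library, not tests. The 100 leading circles of the knockdowns shared 91, those of the controls 69, and those of the group means 56.

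The median ratio of the higher to the lower library was 1.60 between controls and 1.15 between knockdowns. It was 2 or more for 324 of the 860 circles in controls and for 16 in knockdowns. Control replicate 2 was the higher control for 680 circles. A ratio of 10 or more, or a count of 0 in 1 library, was found for 20 circles in controls and for 1 in knockdowns, the STMN1 circle.

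Those 20 circles split into 9 that were higher in control replicate 1 and 11 that were higher in control replicate 2. The 9 were 3 mitochondrial circles, the 5 circles of HSP90AA1, HSP90AB1, EEF1A1 and STMN1 described above, and 1 of AZIN1, whose protein inhibits antizyme. The mitochondrial ribosomal circle of MT-RNR1 (chromosome M, 648 to 1112, plus strand) had 1372 and 0 control counts against 62 and 114 knockdown counts. An antisense-type circle over the ribosomal genes MT-RNR1 and MT-RNR2 (647 to 1864) had 2367, 6, 140 and 237 counts in the same order. The part of control replicate 1 in these values was not tested beyond leaving it out.

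The 11 included 3 circles of SENP6 and ARHGAP5 and 2 of DNAH14, a dynein heavy chain gene, together with circles of ZMYM4, ZNF644, MASTL, WDR26, BRD10 and SPAG16. For the circles of MASTL, a mitotic kinase gene, and BRD10, control replicate 2 lay above both knockdowns per 100000. The MASTL circle had 13 and 159 control counts against 67 and 107 knockdown counts.

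**Figure D3:**
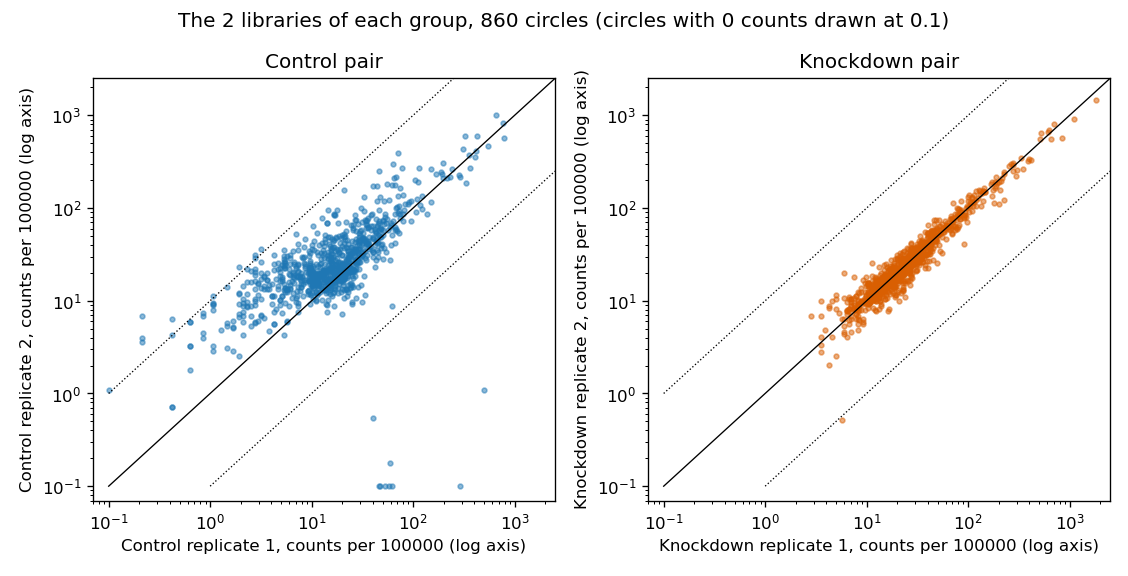
Counts per 100000 (log axes, 0 drawn at 0.1) of the 860 circles in replicate 1 against replicate 2, for controls (left) and knockdowns (right), with the line of equality and dotted lines at 10-fold. The controls scatter widely, with 9 circles below the lower dotted line, and the knockdowns lie close to the line apart from the STMN1 circle.

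By structure the circles were mostly exonic. Of the 860, 812 (94.4%) were exon circles, against 82.0% of the circles with 10 to 199 counts. There were 34 intron circles, 3 antisense, 1 intergenic and 10 on contigs outside the chromosomes, with type unknown. Single-exon rings made up 10.8% of the exon circles against 6.79% of those with fewer counts, and rings of 12 or more exons 14.9% against 19.7%. The median length was 1272 nt against 1242, and both sets had a median of 6 exons.

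The longest ring and the one with the most exons were the same, a CEP192 circle of 7573 nt and 44 exons with 79 and 110 control counts against 67 and 43 knockdown counts. The shortest, 282 nt over 2 exons, lay in RNF138, a ubiquitin ligase gene. More than 1 internal exon structure was listed for 55.7% of the circles against 31.1% of those with 10 to 199 counts.

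The splice motif AG-GT without an asterisk or offset was given for 719 circles (83.6%, against 66.3% of those with fewer counts). A motif with an asterisk was given for 126. No motif was given for 1, the single-exon circle of ARHGAP5. The meaning of the asterisk is not given in the sources used here. Within the host, the 5′ edge lay nearer to the start than to the end of the gene for 72.0% of 685 exon circles with 1 matched host, against 63.9% of the circles with 10 to 199 counts. Chromosome 18, home of CEP192 and PPP4R1, held 43 of the circles (5.00%, against 3.13%). No test was made of these shares, since circles of 1 gene are not independent.

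Among circles that are not of exon type, an intron-type circle of TDRP had 577 and 537 control counts against 206 and 247 knockdown counts. The leading circle on a contig outside the chromosomes had 68 and 526 control counts against 572 and 427 knockdown counts. The single intergenic circle, on chromosome 4, was even, with 119 and 103 control counts against 95 and 101 knockdown counts. An antisense-type circle of PPP2R3A had 16, 75, 64 and 84 counts in the order of the libraries.

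A microRNA hairpin, MIR548AR, lay in exons of some structures of 2 circles of CDC16, an anaphase-promoting complex gene, with 758 and 269 counts. The 2 mature microRNAs (RefSeq, bases 2 to 8 in capitals) are shown because they are the microRNAs whose hairpin lies inside exons of these abundant circles.
hsa-miR-548ar-5p: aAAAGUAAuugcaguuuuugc
hsa-miR-548ar-3p: uAAAACUGcaguuauuuuugc

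The hairpin was in the exons of 2 of 4 listed structures of the first circle and 1 of 2 of the second. Altogether 10 of the 860 circles spanned a RefSeq hairpin, and counts are given per circle and not per structure.

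The circles came from 529 host genes or gene combinations. Of these hosts, 368 had 1 circle and 161 had 2 or more, which together held 481 circles. The leading circle of a host held a median of 45.8% of the circular counts of that host. It held 50% or more for 189 of the 432 hosts that stand alone as 1 gene, as in ZBTB44 (97.7%), HIPK3 (93.9%) and ARHGAP12 (93.7%), and far less in CEP192 (23.0%), BIRC6 (16.5%) and XPO1 (16.1%).

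By summed counts of their abundant circles, the leading control hosts were ZMYM4 (1069 ± 321 per 100000, SD, n = 2), CEP192 (824 ± 80.5) and HIPK3 (797 ± 48.6). The leading knockdown host was ARHGAP5, with 2683 ± 368 per 100000 against 379 ± 371 in controls (SD, n = 2). SENP6 ranked 3 in knockdowns at 1074 ± 96.2 from circles that name it alone, against 67.1 ± 67.3 in controls, where it ranked 108. This sum leaves out 4 circles on 1 edge that name SENP6 with RNU6-1016P. They had 169 and 897 control counts against 2956 and 4347 knockdown counts, so the place understates the gene. ZNF644 ranked 7 in knockdowns and 58 in controls. BARD1, the partner of BRCA1, ranked 9 in knockdowns with 676 ± 64.2 per 100000, and in controls 445 ± 344, where its counts were 951 and 3829.

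CEP192, a centrosome scaffold gene, had the most abundant circles, 13. BARD1 and the nuclear export receptor gene XPO1 had 9 each, and BIRC6 and the SUMO-activating enzyme gene UBA2 had 8 each. Of the 9 XPO1 circles, 8 were higher in both knockdowns than in both controls, beside 23.2% of all tested circles and 33.1% of the 860. Of the 8 UBA2 circles, 5 were lower in both, beside 22.9% and 33.3%, among them a 13-exon circle with 230 and 272 control counts against 43 and 54 knockdown counts.

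Many circles of 1 host shared a splice site. A 5′ edge was shared with another of the 860 by 329 circles, on 131 edges, and a 3′ edge by 208 circles, on 95 edges. Circles on a shared edge had log2 fold changes of the same sign on 103 of the 131 5′ edges and on 78 of the 95 3′ edges. They share a host gene and libraries, so this is a description.

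The most used 5′ edge was in CEP192 (chromosome 18, 12999421, plus strand), with 8 circles of 8 to 39 exons and 11589 counts. The 10-exon circle led with 1151 and 1465 control counts against 522 and 753 knockdown counts. The 39-exon circle, of 6949 nt, had 202 and 301 control counts against 260 and 160 knockdown counts. The 5 circles with 8 to 15 exons had log2 fold changes from -0.95 to -0.14, and the 3 with 19 to 39 exons from 0.40 to 0.45. This split was drawn after the values were seen, and the SE ran from 0.31 to 0.44. The groups did not overlap for the circles of 8, 10 and 12 exons (lower) and 29 exons (higher). They overlapped for those of 14, 15, 19 and 39 exons. The 44-exon circle, whose 5′ edge lies at 12999425, had -0.14. None had an adjusted p under 0.05 in edgeR, and the difference among them was not tested.

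PICALM, which encodes a clathrin assembly protein, had 6 circles on 1 edge (chromosome 11, 86031611, minus strand) with log2 fold changes from 0.54 to 5.99. The 11-exon circle had 188 and 962 control counts against 639 and 917 knockdown counts, with both knockdowns higher per 100000 (106 ± 94.1 and 230.4 ± 6.22, SD, n = 2). The 7-exon circle from the same edge had 2 and 4 control counts against 102 and 163 knockdown counts. Its control mean of 0.571 per 100000 lies near what 3 counts give, so its fold rests on few control counts.

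DNAH14 had 4 circles on 1 edge (chromosome 1, 224952670, plus strand) and all were higher in both knockdowns, with log2 fold changes from 3.47 to 5.26. The 9-exon circle had 28 and 108 control counts against 340 and 589 knockdown counts, and the 6-exon circle 2, 24, 221 and 392. The 4 circles of SENP6 from 1 edge likewise had log2 fold changes from 3.31 to 4.67, with adjusted p of 0.0761 to 0.111 in edgeR. The 5 DOCK1 circles from 1 edge all had negative values, from -1.23 to -0.47.

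**Figure D4:**
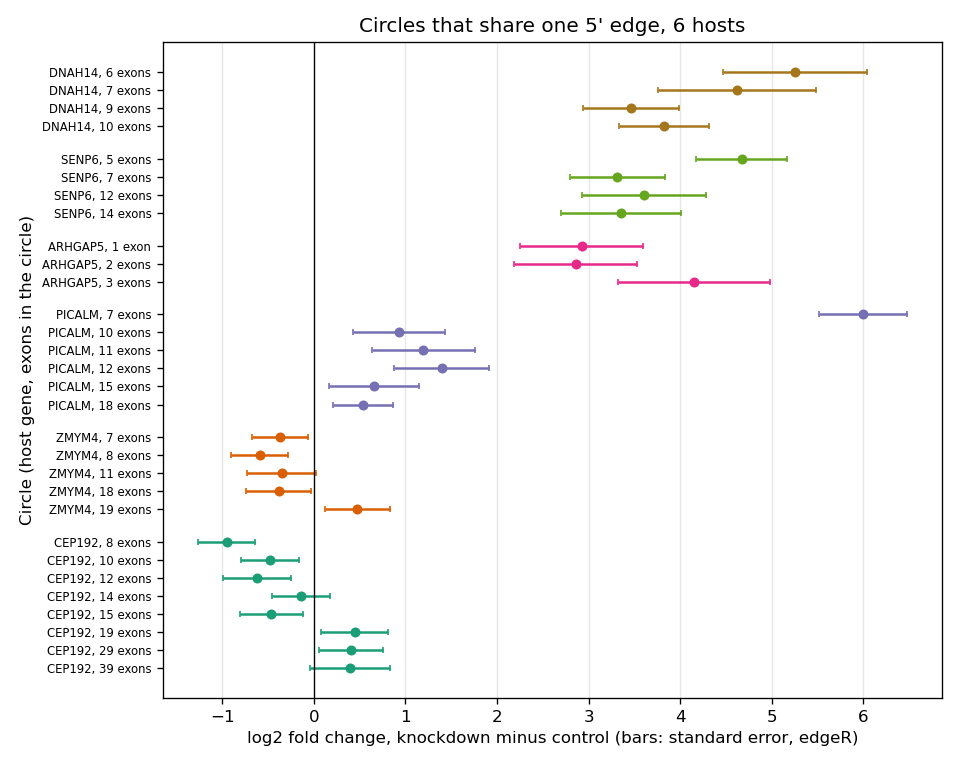
The log2 fold change of each circle, knockdown minus control, in 6 groups of circles that share a 5′ edge, with the host and number of exons on the vertical axis and bars of 1 standard error from edgeR. The DNAH14, SENP6 and ARHGAP5 circles lie between 2.86 and 5.26, 1 PICALM circle lies at 5.99 apart from the other 5, and the CEP192 circles run from -0.95 to 0.45.

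All 860 circles entered the quasi-likelihood fit of edgeR, made over 21576 circles. At an adjusted p of 0.05 it called 0 of the 860, beside 0% of all circles tested. The smallest adjusted p was 0.0761. At an unadjusted p under 0.05 there were 288 of the 860 (33.5%), 166 higher and 122 lower, beside 13.4% of all tested circles, 9.42% higher and 4.00% lower. The summed counts that chose the 860, knockdown counts included, also entered this fit. Their median total was 341.5 counts, against 18 over all circles tested. The shares of the 860 beside those of all circles are thus descriptions, here and in the other circle fits.

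The count past the threshold was not stable. DESeq2 called 226 of the 860, 146 higher and 80 lower, beside 10.5% of the circles for which it gave an adjusted p, 9.06% higher and 1.46% lower. Limma's voom with group weights called 164, 128 higher and 36 lower, beside 1.48%, 1.19% and 0.292% of all tested.

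Filters moved the count of edgeR too. When circles needed 40 counts it called 137, 118 higher and 19 lower, beside 12.5%, 11.3% and 1.21%. When they needed 5 counts in 2 libraries it called 155, 118 higher and 37 lower, beside 12%, 10.4% and 1.55%. With no filter it called 124, 102 higher and 22 lower, beside 0.248%, 0.211% and 0.0363%. In each of these settings more of the 860 were called higher than lower. Without control replicate 1 it called 417 (48.5%, beside 28.1% of the circles then tested) and without control replicate 2 558 (64.9%, beside 43.2%), where the remaining control is assumed to vary as the knockdown pair does. Without either knockdown it called 0, beside 0%.

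The log2 fold change was above 0 for 400 circles (46.5%, beside 40.2% of all tested) and below 0 for 460 (53.5%, beside 59.8%). The median log2 fold change of the 860 circles was -0.13, beside -0.39 over all circles tested, and -0.24 with library-size scaling. Both knockdowns lay above both controls per 100000 for 285 circles (33.1%, beside 23.2% of all tested) and below both for 286 (33.3%, beside 22.9%). At 4-fold or more between group means the directions were unequal. There were 103 circles higher (12%, beside 11.8%) and 10 lower (1.16%, beside 8.15%). Most tested circles held far fewer counts than the 860, so these shares compare circles of unlike depth.

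The 103 came from 70 host genes or gene combinations. SENP6 led with 6 circles alone and 4 with RNU6-1016P, before XPO1 with 7, DNAH14 with 5 and ZNF644 with 4. Of the 100 circles with the most counts, 13 were 4-fold or more higher, near the 11.8% of all tested circles. None of the 100 was 4-fold or more lower, beside 8.15% of all tested, whose median was 18 counts. The 10 lower circles had at most 446 counts in all. The rule sums counts over libraries of unequal depth, of which the controls held 60.4%.

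The 5 higher circles with the smallest p came from PICALM, TAF2, FANCB, SDAD1 and CCDC7, each with an adjusted p of 0.0761 in edgeR. FANCB, a gene of the Fanconi anemia DNA repair complex, had an 8-exon circle with 20 and 31 control counts against 222 and 338 knockdown counts. CCDC7 had a 6-exon circle with 7, 17, 123 and 223 counts, and SDAD1, a ribosome biogenesis gene, a 13-exon circle with 8, 16, 129 and 186. The controls differed 1.32-fold for FANCB, 2.06-fold for CCDC7 and 1.70-fold for SDAD1, less than for ARHGAP5 or SENP6.

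The 5 lower circles with the smallest p came from PEX13, PHKB, USP54, RNF19A and RAB12, with adjusted p of 0.0862 to 0.104 in edgeR. The RAB12 circle, from a small GTPase gene on chromosome 18, was the most abundant of them, with 338 and 755 control counts against 70 and 108 knockdown counts. RNF19A, a ubiquitin ligase gene, had 103 and 111 control counts against 12 and 8 knockdown counts. The single-exon circle of PEX13, a peroxisomal import gene, had 110, 134, 10 and 13 counts in the order of the libraries.

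The circles least even between knockdowns were those of STMN1, CCDC91, CRIM1, UBAP2 and ATG4C. The UBAP2 circle had 93 and 119 control counts against 8 and 27 knockdown counts.

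**Figure D5:**
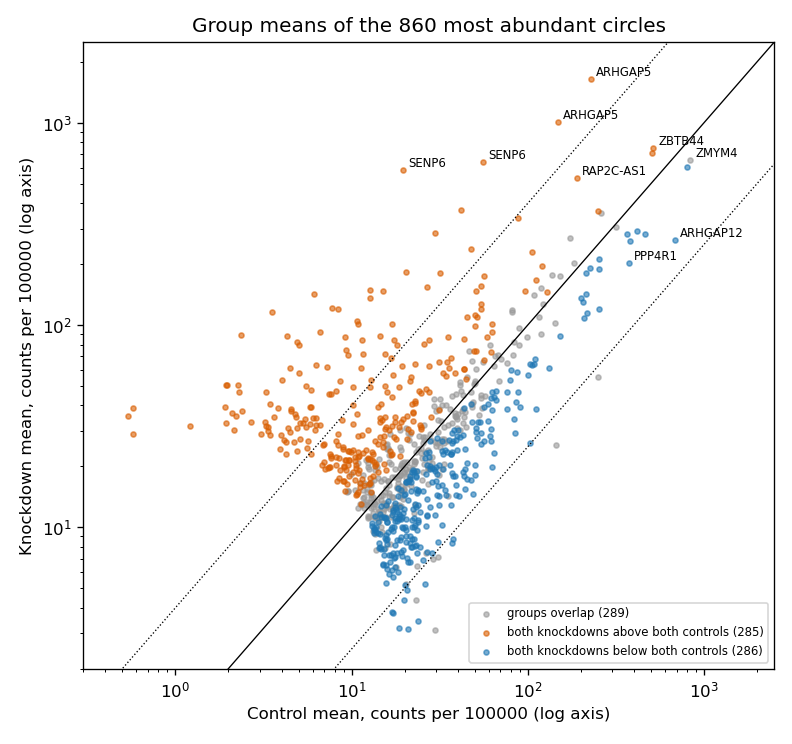
Control mean against knockdown mean in counts per 100000 (log axes) for the 860 circles, with the line of equality and dotted lines at 4-fold. Points are coloured by whether both knockdowns lie above (285) or below (286) both controls or the groups overlap (289), and the empty lower left corner follows from the rule of 200 counts. More circles lie above the upper dotted line than below the lower one.

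Summed over all circles of a gene, 23 of the 432 single-gene hosts rose past an adjusted p of 0.05 in edgeR and 0 fell (5.32% higher, beside 1.47% higher and 0.0338% lower of the 5911 hosts tested). A host is among the 432 only if a circle of it met the rule of summed counts. The counts that decided this, knockdown counts included, also entered the test. The shares of the 432 beside those of all hosts are thus descriptions, here and in the other host fits. The hosts that rose were not the leading ones by abundance. SKA3, of the complex that ties kinetochores to microtubules, rose from 22.5 ± 6.33 to 199 ± 48.3 per 100000 (SD, n = 2), or 3.43 ± 0.53 (SE) as log2 fold change (edgeR adjusted p = 0.0190). FANCB rose from 35.0 ± 10.5 to 247 ± 23.9 and ESCO1, a cohesin acetyltransferase gene, from 25.4 ± 10.5 to 207 ± 22.6 (SD, n = 2).

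LARP4, which encodes a protein that binds poly(A) RNA, rose from 43.0 ± 16.5 to 221 ± 5.05 per 100000 and THOC2, of the THO complex of mRNA export, from 30.1 ± 1.70 to 116 ± 13.9 (SD, n = 2). Others were SGO2, SPAG16, KIFAP3, CEP70, CUL5, TMEM123, DNTTIP2, GPBP1, WDR26, ATRX, ANKRD26, CCDC7, SDAD1, SSX2IP, DNAJC3, RNASEH2B and TAF2. All 23 lost the threshold with the newer dispersion method of edgeR, and 10 hosts passed without knockdown replicate 1 (2.31%, beside 0.827% of hosts then tested) and 7 without knockdown replicate 2 (1.62%, beside 0.431%), all higher. Without control replicate 1 there were 131 higher and 96 lower (30.3% and 22.2%, beside 15.7% and 11.3%). Without control replicate 2 there were 272 higher and 32 lower (63.0% and 7.41%, beside 19.6% and 18.8%).

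Among the 10 leading hosts of either group, none of those that name 1 gene passed. ARHGAP5 had a host log2 fold change of 2.99 ± 0.92 (SE, adjusted p = 0.171 in edgeR) and SENP6 of 3.79 ± 0.82 (SE, adjusted p = 0.0572 in edgeR), with ZNF644 at 2.79 and XPO1 at 2.39. Over 13 alternatives ARHGAP5 ran from 2.25 (without control replicate 1) to 4.99 (without control replicate 2), SENP6 from 3.11 to 5.44, ZNF644 from 2.08 to 4.64 and XPO1 from 1.90 to 3.39, with the same libraries left out at each end. SENP6 passed in 8 of the 13, ZNF644 in 6, and ARHGAP5 and XPO1 in 5 each, with adjusted p for SENP6 from 1.23e-64 to 0.503 across edgeR, DESeq2 and limma. ARHGAP12 stood at -1.04 ± 0.53 (SE, adjusted p = 0.401 in edgeR). The median over the 432 hosts was 0.25 beside -0.27 over all hosts, and it was -0.12 with library-size scaling. Values near 0, as for ZMYM4 at 0.095, CEP192 at 0.074 and HIPK3 at -0.090, thus have no settled direction. TMM scaled the host fit apart from the circle fit, so host and circle values are not on the same scale. The leading HIPK3 circle, with most of its host's counts, had -0.46 in the circle fit. The leading ARHGAP12 circle had -1.47 there.

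Of 30 hosts of widely studied circular RNAs, 8 had a circle among the 860 and 0 of these 8 passed in either direction. The median log2 fold change of the 8 was -0.21, beside 0.25 over the 432 hosts and -0.27 over all hosts. ARHGAP5 at 2.99 and XPO1 at 2.39 belong to this list too. The values of HIPK3, CSNK1G3, PTK2, ZKSCAN1, CDYL and UBAP2 were below 0. Of the 28 list genes tested 1 rose, beside 1.47% of all hosts. With the list chosen after earlier results were known, this share is a description. HIPK3 was at 847 ± 51.2 and 647 ± 77.5 per 100000 and CSNK1G3, a casein kinase gene, at 210.0 ± 147 and 147 ± 34.0 in controls and knockdowns (SD, n = 2). ZKSCAN1, another zinc finger gene with a much studied ring, had a log2 fold change of -1.76 ± 0.37 (SE, adjusted p = 0.0503 in edgeR).

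Among 38 regulators of small GTPases, 11 had such a circle and 0 passed. The median of the 11 was -0.08 (the 432 hosts 0.25, all hosts -0.27). Members of this list that hold the largest circles by counts differed in sign, with ARHGAP5 at 2.99, ARHGAP12 at -1.04 and DOCK1 at -0.36. RALGAPA1, a Ral GTPase-activating protein gene, was at 61.1 ± 27.2 and 210.3 ± 15.3 per 100000 (SD, n = 2, adjusted p = 0.106 in edgeR).

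Of 42 centrosome, spindle and chromosome segregation genes, 12 had such a circle, 3 rose (CEP70, SPAG16 and SGO2) and 0 fell. The median of the 12 was 1.34, beside 0.25 over the 432 hosts and -0.27 over all hosts. Over all 41 genes of the list that were tested 6 rose, and 1.47% of all hosts did. The list was chosen with earlier results of these data known, so this is a description and not a test. CEP70, a centrosome protein gene, rose from 11.1 ± 3.12 to 95.5 ± 11.6 per 100000 (SD, n = 2, adjusted p = 0.0154 in edgeR). CEP192 stood at 1053 ± 102 and 903 ± 107 per 100000 (SD, n = 2) and did not pass, nor did HAUS6, an augmin subunit gene (log2 fold change 2.37, adjusted p = 0.0526 in edgeR).

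Of 39 chromatin and transcription genes, 12 had such a circle, 2 rose and 0 fell. The median of the 12 was 0.48, beside 0.25 over the 432 hosts and -0.27 over all hosts. Of all 39 list genes tested 3 rose, beside 1.47% of all hosts. This list too was chosen with earlier results known, so the share is a description. ATRX, a chromatin remodeler gene, rose from 22.2 ± 3.89 to 96.0 ± 6.2 per 100000 (SD, n = 2), and TAF2, of the general factor TFIID, was just past the threshold with an adjusted p of 0.0499 in edgeR. CHD9, NIPBL and TASOR, with 3 circles each, did not pass.

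Of 39 ubiquitin ligase and deubiquitinase genes, 13 had such a circle, 1 rose and 0 fell. The median of the 13 was -0.05, below the 0.25 of the 432 hosts and above the -0.27 of all hosts. Of the 37 list genes tested 3 rose, beside 1.47% of all hosts and 5.32% of the 432. Earlier results were known when this list was chosen as well, so the share is a description. CUL5, a cullin scaffold gene, rose from 11.9 ± 0.827 to 63.2 ± 6.90 per 100000 (SD, n = 2, adjusted p = 0.0154 in edgeR). RNF19A, with 4 circles, stood at 180.5 ± 16.6 and 58.5 ± 2.32 per 100000 (SD, n = 2) and did not pass (adjusted p = 0.189 in edgeR).

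Of 48 RNA-binding, splicing and nuclear transport genes, 9 had such a circle and 0 passed. The median of the 9 was 0.64 (the 432 hosts 0.25, all hosts -0.27). XPO1 stood at 205 ± 105 and 903 ± 86.6 per 100000 (SD, n = 2, adjusted p = 0.128 in edgeR) and NUP153, a nuclear pore gene, at 106 ± 7.16 and 134 ± 8.01. Of 30 membrane traffic and tethering genes, 5 had such a circle and 0 passed. The median of the 5 was 1.05 (the 432 hosts 0.25, all hosts -0.27). Of the 28 list genes tested 3 rose, beside 1.47% of all hosts. Earlier results were known when the list was chosen, so this share is a description. The lipid transfer protein gene VPS13B stood at 92.8 ± 1.36 and 156 ± 2.12 per 100000 (SD, n = 2, adjusted p = 0.299 in edgeR).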

How the data were processed

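Total RNA of 4 libraries was reverse transcribed with random hexamers and Induro, amplified with phi29 and sequenced on nanopores, per the labels' protocols. The authors deposited whole-number raw counts per back-splice position from the caller CIRI-long, per the file columns, with circle length, exon structure and host genes. The submitters' processing notes name GRCh38.p14 and DESeq2. The aligner, versions and filters are not given in the sources used here. The other measure taken from the deposited table, circle length in nt, was used as given.

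Circles with 200 or more counts were taken, and counts per 100000 computed from library totals. edgeR 4.0.16 (R 4.3.3; glmQLFit with the default dispersion, glmQLFTest, TMM, Benjamini-Hochberg over all rows with at least 10 counts, threshold 0.05) tested circles, and host genes on summed counts of circles naming 1 gene and not antisense. The other circles were tested in the same fit. Fits were tested on simulated data. Alternatives were DESeq2 1.42.0, limma 3.58.1 (voom), other scaling, filters and dispersion, a replicate block, and leaving out each library. With 2 libraries a group, a floor of 3 counts per library is 0.539 to 1.06 per 100000, and covers counting error only.

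The circles and gene lists were chosen with earlier results of these data known. Named were the 10 leading circles and hosts per group, 5 circles per direction by p among those without overlap, the 5 least even in each group, the extremes in length, exons and type, the edge of the rule, and leading hosts of each list. Other circles and hosts (those on shared edges, near gene starts, uneven between controls or 4-fold apart) were named after their values were seen. GRCh38.p14 RefSeq tables gave gene spans, promoters and microRNAs. No genome was used here, so the letters of back-splice junctions were not analysed.

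Same-numbered libraries of the groups deviated with a correlation of 0.0706 over 4944 circles, and no label ties the numbers to a shared culture, so the numbers were treated as names. Results for 1 host gene are not reported here.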

Additional observations from a re-analysis of the deposited data

How the results depend on the processing

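The count of abundant circles past the threshold was 0 in edgeR, and also with library-size scaling, the newer dispersion method, and members taken at 100 or 400 counts or by mean counts per 100000. DESeq2 gave 226, no filter 124, a minimum of 40 counts 137, 5 counts in 2 libraries 155, voom 164 and the replicate block 190. Leaving out 1 library gave 0 (without either knockdown) to 558. Against 23 hosts, DESeq2 called 62, no filter 64, newer dispersion 0, voom 99, the replicate block 57, and leaving out 1 library 7 to 304. No share over all hosts is given for DESeq2, no filter, voom or the replicate block, nor one over all circles for the block. Those counts show only that the number past the threshold moved with the setting. Stricter filters test fewer circles. Otherwise the cause was not tested. No label says the numbers pair libraries. Within same-numbered libraries as a block, the share of counts in the 860 circles was higher in the knockdown by 12.4 and 2.30 points, and in the leading 10 by 2.90 and 0.999 points.

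The host log2 fold change reversed for 5 of 42 named hosts. With library-size scaling it was -0.25 for ZMYM4, -0.30 for CEP192, -0.47 for HIPK3, -0.45 for BACH1 and -0.41 for BIRC6, the last 3 keeping their sign. Leaving out 1 library gave -0.25 (without control replicate 1) to 0.76 for ZMYM4, and for CEP192 -0.11 (without control replicate 1) and -0.02 (without knockdown replicate 1) to 0.48. HIPK3 ran from -0.24 to 0.28 (without control replicate 2), with 0.022 without knockdown replicate 2. BACH1 ran from -0.17 to 0.24 (without control replicate 2), with 0.021 without knockdown replicate 2. BIRC6 ran from -0.29 to 0.45 (without control replicate 2). None of 26 named circles reversed in 12 alternatives. The median of the circles was -0.13, and 0.028 with members taken by mean counts per 100000, which kept 95.8% of them. The depth limits circles with under 10 counts in a library, 40 and 12 of the 860 in controls and 1 and 2 in knockdowns.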
